A study of Homo sapiens with 20 samples.

Results

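The genes described here are 9 genes for secreted factors of the hypoxic response: VEGFA, VEGFB, PGF, ADM, EDN1, EPO, STC2, ANGPTL4 and IGFBP3. They were taken as a fixed list by name, and their data are the HIF1A ChIP-seq peaks whose centre lay between 20 kb upstream of the start and 20 kb past the end of the GENCODE gene record in GRCh37. The list was chosen with earlier results of these data known. The shares of the 9 genes set beside those of all genes are therefore descriptions and not tests. These windows held 37 of the 26484 peaks in the 8 deposited peak lists, made up of 36 of 22452 hypoxia peaks and 1 of 4032 normoxia peaks. The 9 genes are drawn from 38865 protein-coding and lncRNA genes in the annotation. ChIP-seq sequences the DNA fragments that an antibody, here against HIF1A, recovers from crosslinked chromatin, and a peak is a stretch where such fragments pile up above the genomic input. HCT116 and RKO are established colon carcinoma lines, and A549 and H460 are established lung carcinoma lines. No genetic change was introduced in any of them, and each line was grown either in a normoxic incubator or for 24 h in hypoxia at 1% oxygen. The series has 20 samples, with 2 biological replicates of HIF1A ChIP for each line and condition (16 libraries) and 1 input for each line (4 libraries).

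HIF1A is the oxygen-labile subunit of a transcription factor that pairs with ARNT and binds the hypoxia response element, a short DNA motif with the core ACGTG or GCGTG. In normal oxygen HIF1A is hydroxylated, bound by VHL and degraded, and when oxygen falls it accumulates. Its best known outputs include secreted proteins that act on vessels, blood cell production and metabolism, so that a hypoxic cell changes its surroundings as well as itself.

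The replicates were merged before peaks were called, so there is 1 list for each line and condition and no replicate error behind any value. The unit used throughout is the normalized tag count, the number of sequenced tags in a peak scaled to a library of 10000000 tags (10 M). The 95% intervals beside it are exact Poisson intervals of the tags, which cover counting error only. Where the share of a list below a peak is given, it is a mid-rank. Peaks of equal height are then split evenly above and below it. The merged hypoxia libraries held between 46.6 and 81.5 M tags and the normoxia libraries between 41.2 and 69.2 M. The required fold over input had been set for each line, at 14 in H460, 13 in A549, 7 in HCT116 and 6 in RKO. A site with no peak is a site that was not called, which is not a value of 0, and the weakest called peaks held between 11 and 20 tags depending on the list. The descriptions of the RKO and A549 input samples each name the other line, while their titles and the input named in each peak list's header match, and this touches the fold over input in those lines. A peak list holds no expression values, so the identity of the lines was not checked against marker genes.

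Each of the 9 windows held a hypoxia peak from at least 1 line, and the window of 1 gene, ADM in HCT116, held a normoxia peak. In HCT116 hypoxia 5 of the 9 genes had a peak (VEGFA, VEGFB, ADM, ANGPTL4 and STC2), where 18.9% of all genes did. In RKO 5 of 9 had a peak (VEGFA, VEGFB, ANGPTL4, EPO and PGF), beside 27.6% of all genes. In A549 the number was 5 of 9 (VEGFA, ADM, ANGPTL4, STC2 and IGFBP3), beside 21.3%. In H460 it was 6 of 9 (VEGFA, ADM, ANGPTL4, EDN1, STC2 and IGFBP3), beside 17.9%. All 9 are protein-coding, and the share of that class was higher in every line (RKO 34.1%, A549 26.3%, HCT116 24.5%, H460 22.5%). The lines thus held similar numbers of the genes but not the same ones. RKO alone lacked calls at ADM and STC2 and alone had calls at EPO and PGF, and EDN1 was called in H460 alone.

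A peak in at least 1 line is common in the annotation, at 50.0% of all genes and 59.6% of protein-coding genes, so the 9 of 9 should be read against that share. A peak in all 4 lines was found for 2 of the 9 genes, VEGFA and ANGPTL4, beside 3.43% of all genes. With an input fold of at least 14 in every list neither was called in all 4, since RKO lost both. In normoxia the HCT116 list had a peak in the window of 1.39% of all genes and of 1 of the 9. The RKO, A549 and H460 normoxia lists had none at the 9 genes, beside 6.66%, 2.82% and 3.74% of all genes.

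**Figure D1:**
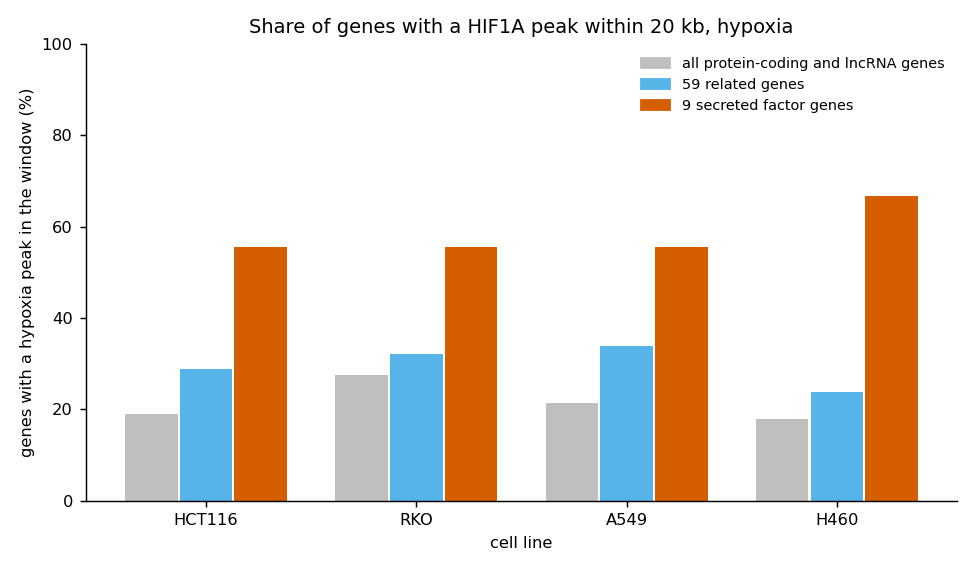
Share of genes (y axis, %) with a HIF1A hypoxia peak between 20 kb upstream of the start and 20 kb past the end, for each cell line (x axis), with bars for all 38865 annotated genes, for 59 related genes of 7 lists and for the 9 secreted factor genes. The orange bars stand for 5, 5, 5 and 6 of 9 genes, and the grey bars for 18.9%, 27.6%, 21.3% and 17.9% of all genes in HCT116, RKO, A549 and H460.

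A window of this size can reach a peak at a neighbouring gene, and 17 of the 36 hypoxia peaks lay nearer to the start of a gene outside the list than to the start of a listed gene. Within 2500 bp of the gene start there was a peak for 4 of 9 genes in H460 (6.82% of all genes), 4 in HCT116 (6.68%), 3 in A549 (5.39%) and 2 in RKO (6.49%). These proximal peaks belonged to 5 genes. VEGFA and ANGPTL4 had them in all 4 lines, STC2 in HCT116, A549 and H460, VEGFB in HCT116 and IGFBP3 in H460. The peaks of ADM, EDN1, EPO and PGF all lay farther than 2500 bp from the start of the gene record.

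The VEGF ligands come first. VEGFA is the main growth factor of endothelial cells and signals through the receptors FLT1 and KDR. Its gene record lies on chromosome 6 from 43737921 to 43754224 on the + strand, and it was the gene of the list whose region was called in the most lines. The 4 hypoxia peaks overlapped in an intron between 1310 and 1391 bp downstream of the start, with their centres within 81 bp of each other. The RKO peak held 6.88 tags per 10 M (5.03 to 9.17), the H460 peak 6.47 (4.43 to 9.13), the A549 peak 4.94 (3.13 to 7.41) and the HCT116 peak 4.42 (3.09 to 6.11). All 4 intervals overlap, and the ratio of the highest line to the lowest was 0.64 on the log2 scale (95% interval -0.02 to 1.31), so the lines could not be ordered at this depth. The peak stood above 94.9% of the 9171 peaks in RKO, 71.6% of 3996 in HCT116, 65.2% of 5408 in A549 and 49.8% of 3877 in H460, and since the lists differ in length and in the fold required, these positions do not rank the lines. No normoxia list had a peak there.

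The stretch called in RKO is shown because it carries the calls of all 4 lines at VEGFA. It is the + strand of GRCh37, 5′ to 3′, and here and in the sequences that follow the capitals mark each match to ACGTG or GCGTG on either strand (CACGT and CACGC when read on the strand shown). The last pair of matches, CACGC and CACGT, lay in the central 200 bp of the peak in every line.
VEGFA RKO hypoxia peak, chr6:43739151-43739311: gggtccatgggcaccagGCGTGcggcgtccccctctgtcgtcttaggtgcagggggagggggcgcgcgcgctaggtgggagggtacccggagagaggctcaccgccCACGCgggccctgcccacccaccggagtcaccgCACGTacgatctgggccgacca

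The nearest start of any gene record was that of an lncRNA gene without a symbol, between 878 and 959 bp away, and the nearest annotated VEGFA transcript start was between 247 and 328 bp away. A further pair of peaks lay past the end of VEGFA, each called in 1 line and similar in height to the intron peaks. The H460 peak 12541 bp past the end held 5.46 tags per 10 M (3.60 to 7.94) and contained the core motif, and the A549 peak 19228 bp past the end held 4.94 (3.13 to 7.41), as much as the A549 intron peak, and did not.

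VEGFB, a ligand of FLT1 linked to fatty acid handling, lies in a gene-dense stretch of chromosome 11 from 64002056 to 64006736 on the + strand. Its window held 7 hypoxia peaks, all from the colon lines, and 6 of them were nearer to the start of another gene. The peak nearest to VEGFB itself was the HCT116 peak 302 bp downstream of the start, in coding sequence, with 4.29 tags per 10 M (2.99 to 5.97). RKO had no call there.

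The region of the VEGFB window called in both colon lines lay past the gene and within 155 bp of the start of PPP1R14B-AS1. It held 7.32 tags per 10 M (5.42 to 9.68) in RKO and 3.31 (2.18 to 4.82) in HCT116. The intervals do not overlap, and the ratio of RKO to HCT116 was 1.15 on the log2 scale (0.44 to 1.88). The 30 bases around the pair of overlapping motif matches that both peaks share are shown because this was the strongest region of the window.
VEGFB window, chr11:64013440-64013469, + strand: gcgggctagcctgCACGCACGCcaagatgg

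The remaining VEGFB peaks were each called in 1 line. The pair closest to each other lay upstream near the start of DNAJC4, where the HCT116 peak held 4.17 tags per 10 M (2.89 to 5.83) and the RKO peak 5.68 (4.02 to 7.80), above 93.0% of the RKO list. Their centres were 156 bp apart. The HCT116 peak ended at 63997868 and the RKO peak began at 63997870, so they lay side by side without overlap. Joining centres within 500 bp makes them 1 shared region. The motif was found in the central 200 bp of the RKO peak and not in that of the HCT116 peak. RKO also had a peak of 3.74 (2.42 to 5.52) near the start of TRPT1 and a peak of 3.29 (2.06 to 4.98) in an intron of PLCB3.

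PGF, the placenta growth factor that also binds FLT1, is on chromosome 14 from 75408537 to 75422329 on the - strand. It had 1 hypoxia peak, in RKO, with 2.84 tags per 10 M (1.71 to 4.44), the lowest of the 36. It stood at 15.6% of the RKO list by mid-rank, at rank 7288 of 9171. The peak lay 18619 bp past the end of PGF and 87 bp from the start of RPS6KL1, so within the window it was a peak at another gene's start.

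The vasoactive peptides are ADM and EDN1. ADM encodes adrenomedullin, a vasodilator peptide that acts on endothelium through CALCRL with RAMP2 or RAMP3, and lies on chromosome 11 from 10326620 to 10328944 on the + strand. Its region was among the strongest of the lists that called it. The normalized tag count was 44.2 tags per 10 M (38.4 to 50.7) in A549 hypoxia, 39.2 (33.9 to 45.2) in H460 and 28.5 (24.9 to 32.4) in HCT116, from 206, 194 and 232 tags. RKO had no peak in the window. The weakest peak of its list stood at 1.94 tags per 10 M. A call also had to pass the input and local filters, so that height is not a detection limit at ADM. The ADM peak ranked 70 of 5408 in A549, 139 of 3877 in H460 and 40 of 3996 in HCT116. The centres lay within 31 bp of each other, between 565 and 596 bp past the end of ADM. The nearest gene start was that of AMPD3, a deaminase of AMP, at 320 to 351 bp, so position does not assign this region to ADM more than to its neighbour.

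The sequence of the A549 peak, the highest of the ADM calls, holds a pair of ACGTG matches on the + strand near its 3′ side, and both were in the central window of all 3 lines.
ADM A549 hypoxia peak, chr11:10329439-10329579: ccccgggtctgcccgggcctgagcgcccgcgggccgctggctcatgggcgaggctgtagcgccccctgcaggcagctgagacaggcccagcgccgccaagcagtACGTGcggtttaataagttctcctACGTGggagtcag

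ADM was also where a normoxia call could be compared with hypoxia. The HCT116 normoxia peak held 3.90 tags per 10 M (2.57 to 5.68) from 27 tags, ranked 59 of 287 in its list and lay 151 bp from the hypoxia centre, with an overlap of 19 bp. Its central 200 bp held 3 matches to the core motif, none of them among the 2 of the hypoxia peaks. Between the lists, hypoxia was 7.29-fold higher, 2.87 on the log2 scale (2.29 to 3.50), by a two-sided exact binomial test conditional on the summed tags with the totals as the offset (p = 4.45e-35, and 2.06e-34 after Benjamini-Hochberg adjustment over the 37 HCT116 peaks called in both conditions). Of those 37 peaks 56.8% (21) were higher in hypoxia at an adjusted p under 0.05 and 1 was lower, with a median log2 ratio of 0.79, and the ratio at ADM was the fifth highest. The test sets 2 merged libraries against each other, not the conditions. Because the peaks barely overlap, it compares mostly different bases, and the ratio does not measure a change at a single site. Scaled to the tags in the shared peaks in place of the library totals, the split was 9 higher and 13 lower, the median log2 ratio was -0.51 and that of ADM was 1.57 (0.99 to 2.21, adjusted p = 8.40e-09 in the exact test).

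EDN1 encodes endothelin-1, a vasoconstrictor peptide, and lies on chromosome 6 from 12290594 to 12297427 on the + strand. Its window held 1 peak, called in H460 hypoxia 2622 bp upstream of the start, and EDN1 was the nearest gene. The peak held 9.30 tags per 10 M (6.81 to 12.4), more than 65.2% of the H460 list, and contained 1 match to the core motif. HCT116, RKO and A549 had no call in the window in either condition.

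EPO and STC2 are glycoprotein hormones. EPO encodes erythropoietin, the hormone of red cell production, through whose enhancer HIF was originally purified, and lies on chromosome 7 from 100318091 to 100321323 on the + strand. The enhancer downstream of EPO lies inside the window searched, and no list had a peak downstream of the gene. The only peak was an RKO hypoxia peak 14450 bp upstream, with 4.33 tags per 10 M (2.90 to 6.23), and it lay 103 bp from the start of POP7.

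STC2 encodes stanniocalcin 2, a secreted glycoprotein that inhibits the protease PAPPA and so acts on IGF signalling. The gene lies on chromosome 5 from 172741726 to 172755450 on the - strand, and the highest of the 36 hypoxia peaks was here. The region upstream of its start held 52.8 tags per 10 M (46.6 to 59.6) in H460, 48.7 (42.6 to 55.5) in A549 and 26.1 (22.7 to 29.9) in HCT116, from 261, 227 and 213 tags. It stood above 98.3% of the H460 list, 99.0% of the A549 list and 98.8% of the HCT116 list. RKO again had no call, and neither had any normoxia list. The centres lay between 1082 and 1133 bp upstream of the start, and STC2 was the nearest gene.

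The H460 peak is shown because it is the highest of the set and because 3 matches to the core motif, all in the central window of each of the 3 lines, stand side by side in it. The sequence is the + strand, so STC2 is transcribed in the opposite direction.
STC2 H460 hypoxia peak, chr5:172756459-172756605: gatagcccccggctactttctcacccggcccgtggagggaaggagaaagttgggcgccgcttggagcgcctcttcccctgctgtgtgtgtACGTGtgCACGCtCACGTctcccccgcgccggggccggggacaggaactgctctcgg

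H460 had a pair of further STC2 peaks that no other line had. The peak 234 bp upstream of the start held 8.49 tags per 10 M (6.12 to 11.5) and 5 matches to the core motif, and its centre was 881 bp from the stronger region. The peak in the untranslated part near the end of the gene held 4.85 (3.11 to 7.22).

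ANGPTL4 encodes a secreted inhibitor of lipoprotein lipase that also acts on vessel integrity, and lies on chromosome 19 from 8428173 to 8439254 on the + strand. It had the most hypoxia peaks of the list, 9 in 6 regions, and for all 9 ANGPTL4 was the gene with the nearest start. A peak was called in every line, but not at the same place. HCT116 and H460 shared a region upstream of the start, with 15.8 tags per 10 M (12.5 to 19.7) in H460 and 7.97 (6.15 to 10.2) in HCT116 and with centres 3 bp apart. RKO and A549 shared a region in an intron downstream of the start, with 9.23 (6.68 to 12.4) in A549 and 6.43 (4.65 to 8.66) in RKO. These regions are 1766 bp apart, and neither pair of lines had a call in the region of the other pair. The pairs do not follow the tissue, since each joins a colon line with a lung line.

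Both regions are shown to set their motif matches side by side. The upstream peak has a CACGT within 5 bp of the centre in both lines, and of the intron region, which runs into an untranslated exon of some transcripts, the 30 bases around the CACGT that both peaks share are given.
ANGPTL4 upstream, H460 hypoxia peak, chr19:8426954-8427100, + strand: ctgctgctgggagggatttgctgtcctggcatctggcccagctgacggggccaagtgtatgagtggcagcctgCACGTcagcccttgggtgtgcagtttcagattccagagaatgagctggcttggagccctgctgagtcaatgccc
ANGPTL4 intron, chr19:8428792-8428821, + strand: gggaaagaagagtCACGTctcccacggttc

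A region farther upstream, 7441 to 7458 bp from the start, was also called in A549 and RKO, with 4.72 tags per 10 M (2.96 to 7.15) and 2.99 (1.83 to 4.62). It was the shared region with no match to the core motif in either line, and its A549 sequence is shown for that contrast.
ANGPTL4 far upstream, A549 hypoxia peak, chr19:8420645-8420785, + strand: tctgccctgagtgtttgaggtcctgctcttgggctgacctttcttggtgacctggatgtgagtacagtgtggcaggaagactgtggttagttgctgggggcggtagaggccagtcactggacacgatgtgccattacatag

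The other ANGPTL4 peaks were each called in 1 line. RKO had an intron peak 1390 bp downstream of the start at 4.04 tags per 10 M (2.66 to 5.87). A549 had an intron peak at 4365 bp with 5.15 (3.30 to 7.67), and a peak 1192 bp past the end, in an intron of RAB11B-AS1, with 6.66 (4.52 to 9.45).

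IGFBP3 encodes a binding protein that carries insulin-like growth factors in blood and limits their access to the receptor. It lies on chromosome 7 from 45951844 to 45961473 on the - strand, and its peaks came from the lung lines. H460 had an intron peak 528 bp downstream of the start with 5.46 tags per 10 M (3.60 to 7.94) and 2 motif matches. Past the end of the gene H460 had a peak of 3.44 (2.00 to 5.50) and A549 a peak of 4.29 (2.62 to 6.63), which lay 1513 bp apart and held no match. The H460 peak past the end stood at 6.87% of its list by mid-rank, the lowest position of the 36.

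The peaks of the 9 windows differed widely in height. The normalized tag count ran from 2.84 to 52.8 tags per 10 M with a median of 5.46, and 7 of the 36 hypoxia peaks exceeded 10 tags per 10 M, 3 of them at STC2, 3 at ADM and 1 at ANGPTL4. The median of the peaks was 7.48 in H460, 5.15 in A549, 4.42 in HCT116 and 4.19 in RKO, beside list medians of 6.47, 3.87, 3.07 and 3.29. Above the list median were 9 of 9 peaks in A549, 7 of 7 in HCT116, 8 of 10 in RKO and 5 of 10 in H460. In RKO the peaks were close in height, from 2.84 to 7.32, while A549, H460 and HCT116 each had the ADM and STC2 regions well above the rest.

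**Figure D2:**
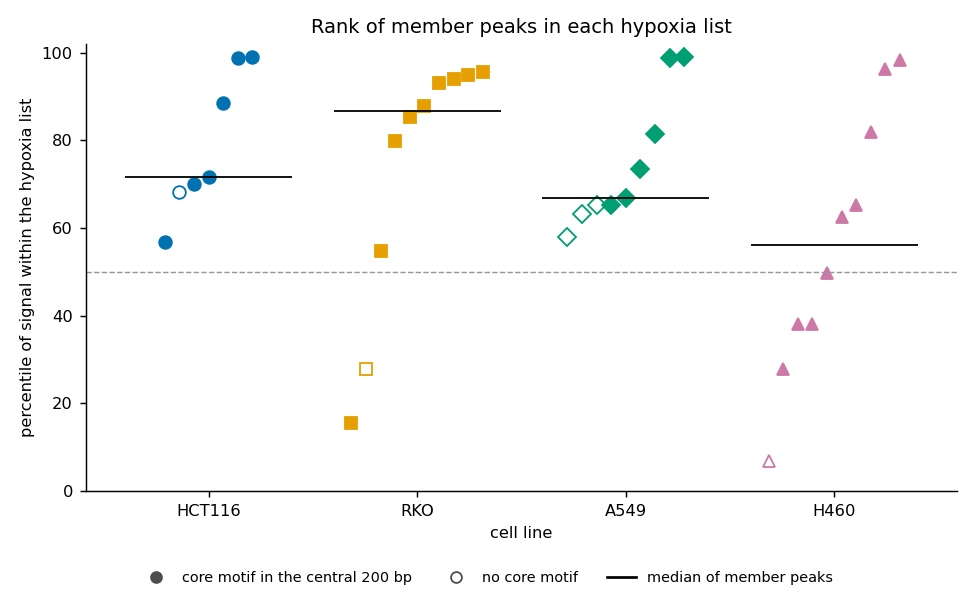
Percentile of each hypoxia peak of the 9 genes within its own list (y axis, mid-rank of the normalized tag count in %, with equal peaks split evenly above and below) for each cell line (x axis), where filled symbols have the core motif in the central 200 bp, open symbols have none, black lines are medians and the dashed line is the middle of the list. The medians lie at 86.6 in RKO, 71.6 in HCT116, 66.8 in A549 and 56.2 in H460, the lists differ in length and in the fold required, and the highest points in HCT116, A549 and H460 are ADM and STC2.

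The core motif was present in the central 200 bp of 30 of the 36 hypoxia peaks. By line these were 9 of 10 in H460, 6 of 7 in HCT116, 6 of 9 in A549 and 9 of 10 in RKO, where the whole lists held it in 76.9%, 65.2%, 52.4% and 30.5% of peaks and windows of the same length at all gene starts in 36.6%. It was present in 16 of the 18 peaks in regions called in more than 1 line and in 14 of the 18 peaks called in 1 line. A match to these letters is a description of the sequence and not a measured binding site.

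Joined by overlap of at least 1 bp, the 36 hypoxia peaks formed 25 regions. Of these 18 were called in 1 line, 4 in 2 lines, 2 in 3 lines (ADM and STC2) and 1 in all 4 (VEGFA). Among all 19625 regions of the series, 90.3% were called in 1 line, 6.28% in 2, 2.28% in 3 and 1.19% in all 4.

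Whether the lines differed in height was examined at the 7 shared regions. On the library scale HCT116 was the lowest line at each of the 5 regions in which it was called. At STC2 the log2 ratio of H460 to HCT116 was 1.02 (0.75 to 1.28), and H460 and A549 did not differ beyond their overlapping intervals. At the upstream ANGPTL4 region the ratio of H460 to HCT116 was 0.99 (0.49 to 1.48), and at ADM that of A549 to HCT116 was 0.63 (0.36 to 0.91). The intervals of the intron and far upstream regions of ANGPTL4 included 0, at 0.52 (-0.12 to 1.17) and 0.66 (-0.28 to 1.61) for A549 over RKO.

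This order depended on the scale. The median of the regions called in all 4 lines, a measure of how much signal a line gave at sites common to the 4, was 26.9 tags per 10 M in H460, 23.0 in A549, 11.7 in HCT116 and 9.72 in RKO. Relative to that median ADM stood at 2.44 in HCT116, 1.92 in A549 and 1.46 in H460, and STC2 at 2.23, 2.12 and 1.96. The log2 ratios given above then became -0.35 at ADM, -0.21 at the upstream ANGPTL4 region and -0.19 at STC2, so HCT116 no longer had the lowest value there. The ratios of A549 to RKO became -0.59 at the far upstream and -0.72 at the intron region of ANGPTL4. Intervals of the ratios were not computed on this scale, so it does not settle the order of the lines. At the shared VEGFB region the ratio of RKO to HCT116 was 1.41 on this scale, and at VEGFA, where the lines could not be ordered on the library scale, it was 0.91. VEGFA stood at 0.708 in RKO, 0.378 in HCT116, 0.241 in H460 and 0.215 in A549, so HCT116 did not have the lowest value there either. Immunoprecipitation efficiency and occupancy cannot be told apart in these lists.

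**Figure D3:**
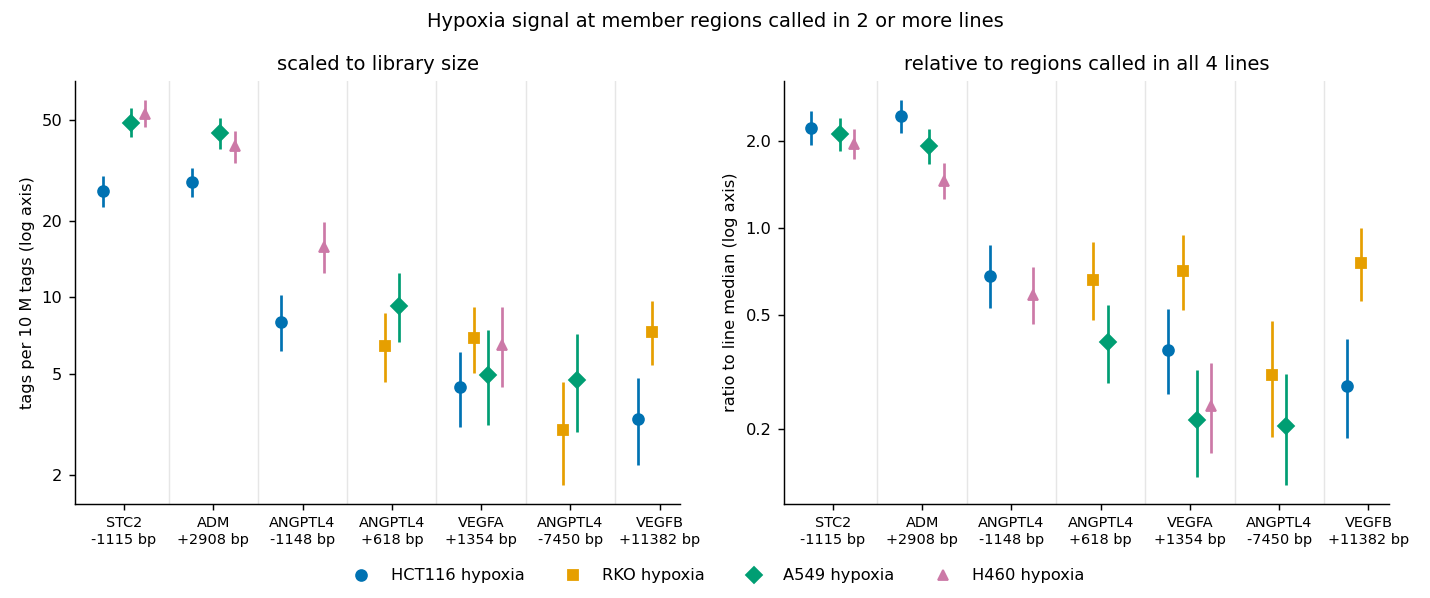
Hypoxia signal of the 7 regions called in more than 1 line, in tags per 10 M tags (left, log axis) and relative to the line's median over regions called in all 4 lines (right, log axis), with a symbol for each line, 95% Poisson intervals as bars, and the distance of the region from the gene start in bp on the x axis. On the left HCT116 is lowest at STC2 (26.1) and ADM (28.5). On the right its value is highest at both (2.23 and 2.44), with bars that overlap those of A549. The HCT116 bar there also overlaps that of H460 at STC2, but not at ADM. The bars on the right leave out the uncertainty of the line medians.

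The related genes of the same pathways were described by the same window. Of 59 genes in 7 lists, 37 (62.7%) were called in hypoxia in at least 1 line. That share lay above the 50.0% of all genes but close to the 59.6% of protein-coding genes. Calls in all 4 lines were present for 4 of the 59 (3.43% of all genes). A normoxia peak from at least 1 line was present in the windows of 13 of the 59. The share of all genes was taken only for single normoxia lists, from 1.39% in HCT116 to 6.66% in RKO. Without a share over the 4 lists together, the 13 cannot be set against all genes. Among the other VEGF ligands and receptors 5 of 7 had a peak. The gene called in all 4 lines was VEGFD, a lymphatic growth factor, with 17.0 tags per 10 M in A549, 15.0 in H460, 5.38 in RKO and 4.29 in HCT116, and its A549 peak lay 25 bp from the start of the neighbour PIGA. VEGFC, NRP1 and NRP2 followed with at most 4.45, 3.74 and 3.44.

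The angiopoietin family had 7 of 12 genes with a peak and none in all 4 lines. Its highest was ANGPTL6 with 13.7 in H460, 264 bp from the start of PPAN, while ANGPT2 reached 4.66 in HCT116 and ANGPT1 3.89 in RKO. In the adrenomedullin family and its receptor 3 of 9 genes had a peak, all of them low, with RAMP1 at 3.87 in A549, ADM5 at 3.22 in A549 and RAMP2 at 2.82 in HCT116.

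The endothelin system had 3 of 5, and there EDN2 differed from EDN1 in having a peak in all 4 lines, 11730 bp upstream of its start in HCT116. It held 18.9 tags per 10 M in HCT116, 17.8 in A549, 16.8 in H460 and 10.5 in RKO. EDNRB and EDN3 had peaks in RKO alone, at 3.29 and 2.99. STC1, the paralogue of STC2, had peaks of 30.9 in H460, 640 bp downstream of its start, and 21.5 in A549, and was not called in HCT116 or RKO, and EPOR, the erythropoietin receptor, had a peak of 3.44 in RKO.

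Among the insulin-like growth factors and their binding proteins 4 of 8 genes had a peak. IGFBP4 reached 29.0 in A549, 28384 bp from the nearest start, that of TNS4, without the core motif, and its window also held 4 normoxia peaks. IGFBP1, the neighbour of IGFBP3 on chromosome 7, had peaks of at most 5.66, and IGF2 had a peak of 4.72 in A549, nearer to the start of TH. The windows of IGFBP1 and IGFBP3 overlap, so a peak between these genes can be counted for both. The IGFBP1 value in A549, 4.29, equals that of the IGFBP3 peak past the end.

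Of the other secreted factors 13 of 16 had a peak. MIF, a cytokine, was called in all 4 lines, with 38.0 in H460, 17.4 in A549, 14.7 in HCT116 and 8.37 in RKO, and its H460 peak lay 19 bp from the start. ANG, which encodes angiogenin, was called in all 4 lines with 22.4, 24.1, 4.29 and 8.67 in the same order. FGF11 and PDGFB were called in HCT116, A549 and H460 and not in RKO, as ADM and STC2 were, with at most 35.9 and 34.8.

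The calls depended on the filters of the peak caller. With a fold of at least 6 over the surrounding 10000 bp, HCT116 kept ADM, ANGPTL4 and STC2 and lost VEGFA and VEGFB, and RKO kept VEGFA, VEGFB and ANGPTL4 and lost EPO and PGF. With a fold over input of 14 or more, RKO kept instead VEGFB and EPO, whose highest folds were 24.76 and 32.64, and lost VEGFA (8.63), ANGPTL4 (at most 11.25) and PGF (10.69), while HCT116 lost ANGPTL4 (9.09). RKO then kept VEGFB only by its peak in the PLCB3 intron, 18237 bp past the end of VEGFB. The highest RKO peak of the VEGFB window was lost (9.19). Both folds kept in RKO rest on an input of 0.5 tags. Under the local fold of at least 6, A549 went from 9 to 6 peaks and from 5 to 4 genes. H460 went from 10 to 6 peaks and from 6 to 5 genes, and both lost IGFBP3. A549 then kept VEGFA only by its peak 19228 bp past the end.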

How the data were processed

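HIF1A ChIP-seq peak lists from 16 ChIP libraries and 4 inputs were used, with groups taken from the sample titles. The authors aligned reads to GRCh37 (hg19) with Bowtie2 2.2.9, merged the replicates, and called peaks with HOMER 4.3 against the input of the line, with a fold of 3 over the surrounding 10000 bp in every list. SAMtools 1.3.1 and Picard 1.129 are also named in the submitters' processing notes. The deposited signal is the normalized tag count (tags per 10 M), and the deposited fold ratios over input and over the local region were used only to filter peaks. The members and the related gene lists were chosen with earlier results of these data known.

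Peak centres were compared with the gene records of GENCODE release 44 mapped to GRCh37. Whole tags were recovered by multiplying the signal by the total in the header. At 41.2 to 81.5 M tags per list, 95% Poisson intervals give the precision. Peaks called in both conditions of a line were tested with the exact conditional binomial test (scipy 1.17.1, pandas 2.3.3, pysam 0.24.0), and regions were joined by overlap of at least 1 bp. The calculation of the test was checked on simulated Poisson tags with known folds. That simulation had no replicate variation and no peaks that differ in position or width. The motif was searched on both strands in 200 bp. Named were the 9 genes, every peak in their windows with its nearest gene, and from each related list the genes called in all 4 lines plus at most 3 more with the highest tag count. The values of 1 gene that this rule names are not reported here. Sequence was fixed as the strongest shared peak of each gene, and the ANGPTL4 intron and far upstream regions were added after their values were seen. Alternatives were other windows, filters, transcript starts, motif windows, joining rules and scalings. Expression and reads of single replicates were not analysed here.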

Additional observations from a re-analysis of the deposited data

How the results depend on the processing

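No paired analysis was possible because each deposited list pools both replicates of its group, and for the same reason no replicate could be left out. The number of the 9 genes with a hypoxia peak fell from 5 to 3 in HCT116 under a local fold of at least 6. In RKO it fell from 5 to 3 with a 5 kb window, to 3 under the local fold of at least 6 and to 2 with an input fold of at least 14, which are stricter by construction. In A549 and H460 it stayed within 1.5 times under every alternative run, as it did in all lines with a 50 kb window. The input fold of at least 14 was no test in H460, whose list already required 14. It was hardly one in A549, whose list required 13. The normoxia peak at ADM was lost under either stricter fold. Relative to regions common to the 4 lines, the log2 ratio of the highest to the lowest line of the library scale changed sign at ADM (-0.35), at the upstream ANGPTL4 region (-0.21) and at STC2 (-0.19). The sign also changed at the far upstream (-0.59) and intron (-0.72) regions of ANGPTL4, where the library-scale intervals had included 0. The ADM ratio of hypoxia to normoxia kept its direction and its side of the threshold with peak width included (3.22) and scaled to shared peaks (1.57), where the split of the 37 peaks was 27 higher and 0 lower, and 9 higher and 13 lower. Under either scaling the ADM peaks still covered mostly different bases, so neither gives a ratio at a single site. Joining centres within 500 bp gave 8 shared regions in place of 7. With 17 tags in the weakest peak at the 9 genes, depth limits every value under about 5 tags per 10 M.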
